A study of Mus musculus with 30 samples.

Results

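Gaa knockout (KO) and wild-type (WT) whole spinal cord were compared in mice of a mixed B6;129;DBA2/J background. The comparison rests on 6 of the 30 samples of the study, chosen by the genotype in their labels: the WT mice numbered 1, 3 and 4 and the KO mice numbered 6, 7 and 8. All genes were considered, and 15838 of the 17420 genes in the deposited table were tested. These 6 mice were male, untreated and 4 months old, and every mouse of this background, the WT controls included, is labelled as carrying 2 copies of the D36 allele of Ltbp4 (Ltbp4D36/D36), so the comparison holds no animal of this background without that allele. The labels give no further strain history and do not say whether KO and WT mice were littermates. The p-values measure the spread between mice within the 5 cord groups, which the model pools. The remaining samples were cord of KO and WT mice on a B6;129 background, cord of mixed-background KO mice injected through the temporal vein at postnatal day 1 or 2 with AAV9 that carries human GAA (a liver-muscle promoter drives it), and quadriceps muscle of the same 15 animals.

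Gaa encodes acid alpha-glucosidase, the enzyme that breaks down glycogen inside lysosomes. Its loss causes Pompe disease, in which glycogen accumulates in lysosomes of muscle and also of motor neurons, interneurons and glia of the spinal cord. Lysosomal genes share the transcription factor TFEB as a regulator, and microglia, the resident phagocytes of the cord, and astrocytes change their transcripts in many storage diseases.

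The cord libraries of the 6 mice held 21073352 to 26968903 recovered reads, and 13.2% to 17.1% of the reads came from mitochondrial genes. Values are given in the deposited signal, a linear normalized count in which 1 read is worth 0.0288 to 0.0369. Differences are log2 differences of signal plus 0.5, KO minus WT, with their standard error (SE), and adjusted p-values are Benjamini-Hochberg values of limma over all tested genes. A gene is said to rise, fall or be called at an adjusted p under 0.05. Values per library are listed in the order WT 1, 3 and 4 and KO 6, 7 and 8. The first principal component of the 6 libraries, with 38.98% of their variance, separated KO from WT, and the second, with 22.32%, set WT 3 and WT 4 at opposite ends. Genes that mark spinal cord were abundant in both groups: the summed signal of 22 myelin genes was 28480 to 37720 in WT and 35750 to 37750 in KO, and that of 20 motor neuron genes 4179 to 4877 and 4086 to 4594. Markers of tissues that lie next to the cord varied between mice of the same genotype. The summed signal of 14 skeletal muscle markers was 780.0, 2437 and 265 in WT and 438, 346 and 641 in KO. That of 13 Schwann cell markers was 262, 782 and 231 in WT and 443, 322 and 364 in KO, and that of 6 blood cell markers 190.0, 202 and 107 and 188, 955 and 248. WT 3 had the most muscle and Schwann cell signal and KO 7 the most blood signal. All 14 muscle differences were negative (median -1.11) and all 6 blood differences positive (median 1.04). The muscle median was 0.052 without WT 3, and the blood median 0.376 without KO 7. In the limma model of all cord libraries none of these markers was called, and neither was any of 13 markers of meninges and fibroblasts. With edgeR and with DESeq2 1 blood marker was called higher. The part of these tissues in the results below was not tested beyond leaving out each library in turn.

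Gaa, the deleted gene (ENSMUSG00000025579, chr11:119267887-119285454 on the plus strand, GRCm38) had a signal of 131, 139 and 144 in the WT libraries and 13.4, 12.1 and 10.6 in the KO libraries. The groups were far apart, and the transcript fell by 3.47 ± 0.09 (adjusted p = 9.51e-12). A residual signal of 10.6 to 13.4 remained in the KO libraries, and the files do not show which exons it covers. Ltbp4, which encodes a latent TGF-beta binding protein whose DBA/2J allele is known as a modifier of muscular dystrophy in mice, had 11.6, 13.7 and 10.6 in WT and 20.6, 16.4 and 14.5 in KO. The KO libraries were all higher, and Ltbp4 rose by 0.50 ± 0.11 (adjusted p = 0.0118). The Ltbp4 call was lost without WT 4 (0.42, adjusted p = 0.0583) and within the 6 libraries alone (adjusted p = 0.0736).

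Across the transcriptome 2061 of 15838 genes (13.0%) were called between KO and WT. Of these 1134 rose, 7.16% of the tested genes, and 927 fell, 5.85%. The changes were mostly small: 125 called genes differed by more than 2-fold, 98 of them upward, while 738 of the risen and 829 of the fallen genes differed by less than 1.5-fold. The 3 WT and 3 KO libraries did not overlap at 4626 genes (29.2%). Most genes quoted below were chosen by their adjusted p or size of change in these same libraries. The separation of their groups is partly fixed by that choice. The number of calls depended on the libraries used. It was 917 without WT 4, 1137 without KO 6 and 1346 without KO 8, and 722 (483 up and 239 down) when the model used the 6 libraries alone. After a correction for transcript length and GC content, added after seeing the data, 2347 genes were called, 985 up and 1362 down.

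Counts by gene list, set against 7.16% higher and 5.85% lower among all tested genes, differed between cell types. Microglial, complement, MHC class I, interferon, cathepsin, astrocyte reactivity and endothelial genes had many members that rose and none that fell. Genes of inhibitory and dorsal horn neurons and of synapses, and nuclear genes of the respiratory chain, had members that fell and none that rose. In bulk tissue, fewer cells of a type and less RNA per cell cannot be told apart.

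**Figure D1:**
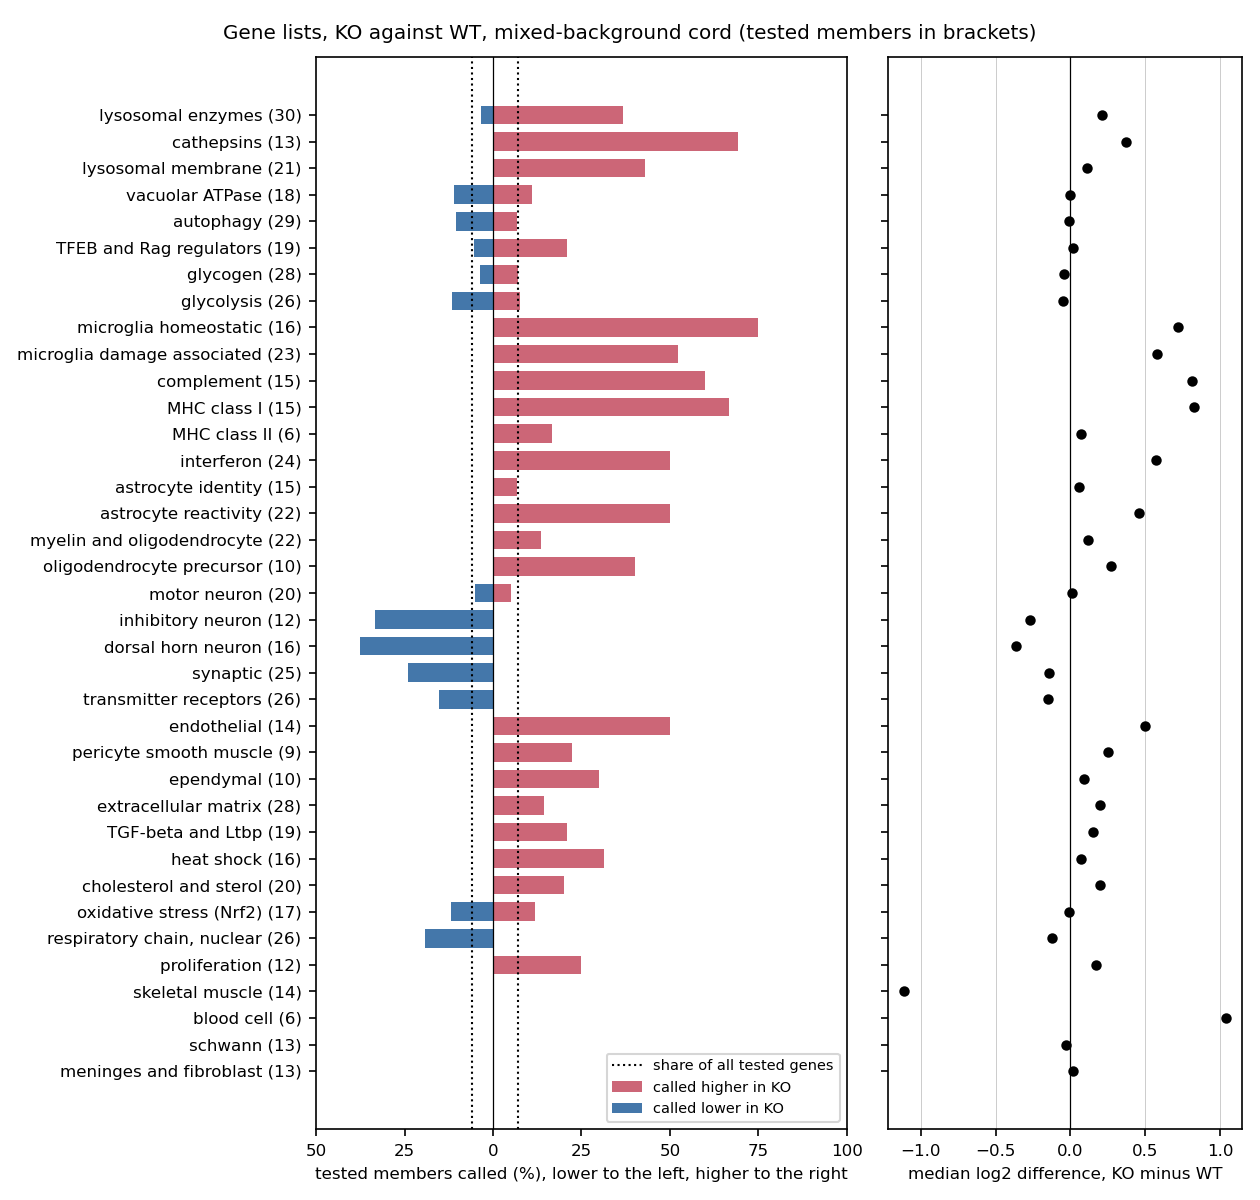
Share of tested members called in each gene list (left, percent, higher in KO to the right and lower to the left, dotted lines at 7.16% and 5.85% of all tested genes) and median log2 difference (right). Microglia homeostatic genes had 12 of 16 members higher and dorsal horn neuron genes 6 of 16 lower.

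Of 30 soluble lysosomal enzymes and their helpers 11 rose and 1, Gla, fell, with a median difference of 0.21 against -0.007 over all tested genes. Man2b1, lysosomal alpha-mannosidase, had 14.1, 16.2 and 14.8 in WT and 32.8, 25.7 and 29.7 in KO (0.94 ± 0.12, adjusted p = 0.000325). Hexa, a subunit of beta-hexosaminidase, had 35.7, 35.01 and 39.2 and 51.5, 50.5 and 47.01 (0.44 ± 0.07, adjusted p = 0.0023). In both the lowest KO library stood above the highest WT library. Npc2, which moves cholesterol out of lysosomes, rose by 0.43 ± 0.06 (adjusted p = 0.000902), whereas Psap, the abundant precursor of the saposins, had overlapping groups (998 to 1069 in WT and 1066 to 1080 in KO, 0.06 ± 0.04, adjusted p = 0.452). The 11 risers became 8 to 13 when any library was left out and 5 within the 6 libraries alone, and the fall of Gla was lost without WT 4 or any 1 KO library.

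The cathepsin list, which holds proteases of the lysosome and their inhibitor Cst3, had 9 of 13 members higher and none lower (median 0.37). Cst3 was among the 9. Ctss, a cysteine protease best known from phagocytes, had 52.3, 51.5 and 53.8 in WT and 139, 135 and 129 in KO (1.34 ± 0.13, adjusted p = 4.16e-05), a gap many times the spread within either group. Ctsd, the main aspartic protease, had 253, 277 and 309 and 451, 469.9 and 454 (0.72 ± 0.08, adjusted p = 0.000137). Ctsz and Ctsa, both carboxypeptidases, rose by 0.74 ± 0.07 (adjusted p = 5.12e-05) and 0.37 ± 0.06 (adjusted p = 0.00158). The 9 calls became 8 or 9 when any of the 6 libraries was left out.

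The 250 bases before the start of Ctsd are shown because they hold the 6-letter core of the motif that TFEB and related factors bind, CACGTG, in capitals (RefSeq, GRCm38.p6, chr7:142387828-142388077, minus strand).
Ctsd: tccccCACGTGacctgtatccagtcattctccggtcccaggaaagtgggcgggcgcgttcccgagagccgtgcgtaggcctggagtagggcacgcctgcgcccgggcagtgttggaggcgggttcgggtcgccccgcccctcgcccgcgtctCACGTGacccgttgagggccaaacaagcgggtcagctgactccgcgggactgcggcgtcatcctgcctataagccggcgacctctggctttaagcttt
CACGTG, which reads the same on both strands, was found in 3 of 11 cathepsin windows (27.3%), 5 of 24 lysosomal enzyme windows (20.8%) and 3 of 17 lysosomal membrane windows (17.6%), against 948 of the 11457 windows matched by symbol to tested genes (8.27%). A match is a description of the letters and shows no binding.

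Of 21 lysosomal membrane genes 9 rose and none fell (median 0.11), and 5 rose without KO 8 or within the 6 libraries alone. Laptm5, a lysosomal protein of blood-derived and microglial cells, had 18.9, 18.98 and 19.8 in WT and 50.2, 52.02 and 46.9 in KO (1.35 ± 0.14, adjusted p = 6.3e-05). Cd63, a tetraspanin of late endosomes, had 95.4, 104 and 90.8 and 151, 159.5 and 158 (0.69 ± 0.07, adjusted p = 9.88e-05). Lamp2, which is needed for fusion of autophagosomes with lysosomes, rose by 0.38 ± 0.05 (adjusted p = 0.000719), and Scarb2, the carrier of glucocerebrosidase, by 0.30 ± 0.05 (adjusted p = 0.00316). Of 8 galectins and genes of the response to lysosomal damage 3 rose and 2, Lgals8 and Ube2ql1, fell (median 0.29). Among the risers Lgals3, galectin-3, which binds damaged lysosomes and is made by phagocytes, had 2.14, 1.86 and 1.09 in WT and 8.62, 8.85 and 9.93 in KO (2.16 ± 0.21, adjusted p = 3.37e-05).

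**Figure D2:**
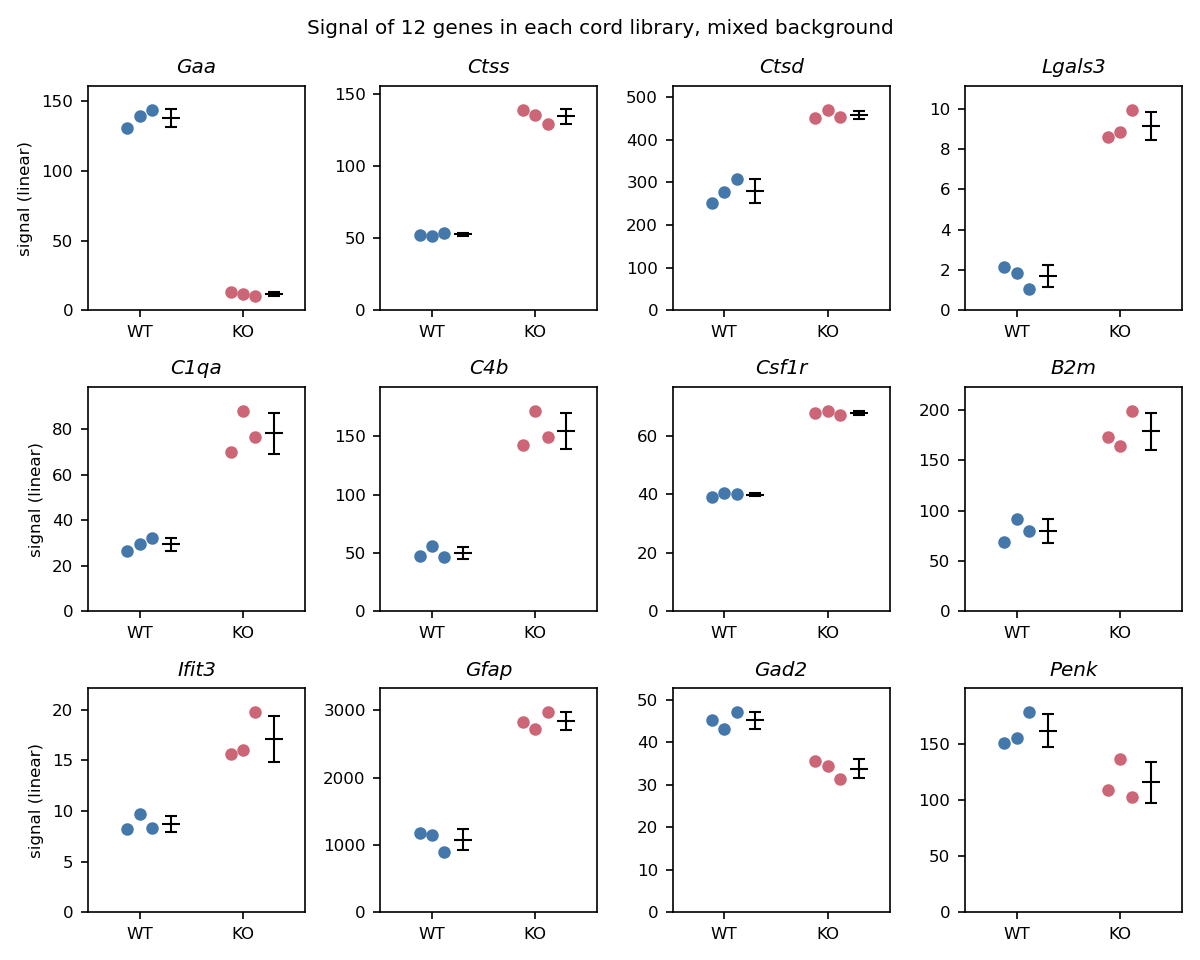
Signal (linear axis from 0) of 12 genes in the 3 WT (blue) and 3 KO (red) cord libraries, with the mean and SD of each group in black. Gaa, Gad2 and Penk are lower in every KO library, and the other 9 genes are higher in every KO library.

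Genes of lysosomal acidification and autophagosome formation were called in both directions. Of 18 tested vacuolar ATPase genes 2 rose and 2 fell (median 0.00), with none higher without WT 1. Of 29 autophagy genes 2 rose and 3 fell (median -0.01), with none called without WT 4 and 1 without KO 6. Among all tested genes 13.0% were called. Atp6v1a, the catalytic subunit of the pump, had 247, 262 and 269.7 in WT and 222, 207 and 233 in KO (-0.23 ± 0.06, adjusted p = 0.0194), a call lost without WT 4 (-0.21, adjusted p = 0.078) or KO 7 (-0.19, adjusted p = 0.0619). Atp6v0b of the membrane sector rose by 0.21 ± 0.05 (adjusted p = 0.02), a call lost without WT 1 (0.20, adjusted p = 0.0525) or KO 7 (0.16, adjusted p = 0.0625). Sqstm1 encodes the autophagy receptor p62, a protein that accumulates when autophagy stalls. Its transcript had 386, 394 and 392 and 374, 425 and 388 with overlapping groups (0.02 ± 0.04, adjusted p = 0.855), and the protein was not measured here. Among 19 regulators of TFEB and the Rag GTPases 4 rose and 1 fell (median 0.02). Flcn, which encodes folliculin, and its partner Fnip2 act on the Rag GTPases that hold TFEB in the cytoplasm. Flcn had 23.3, 26.8 and 25.7 in WT and 35.9, 32.98 and 33.96 in KO (0.43 ± 0.07, adjusted p = 0.00192), and Fnip2 4.88, 5.38 and 6.12 and 10.04, 7.86 and 8.13 (0.62 ± 0.11, adjusted p = 0.00352). The KO libraries of both genes were above every WT library, and 3 or 4 of the list rose when any library was left out.

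Genes of glycogen handling outside the lysosome had 2 members higher and 1 lower of 28 (median -0.04), with 1 higher without WT 1, WT 4, KO 6 or KO 8 and 2 lower without WT 3 or KO 8. The faller was Ppp1r3f, a subunit that brings protein phosphatase 1 to glycogen, with 26.99, 27.3 and 29.8 in WT and 20.8, 17.8 and 20.3 in KO (-0.51 ± 0.08, adjusted p = 0.00174), with no overlap. Phka2, a regulatory subunit of phosphorylase kinase, rose by 0.48 ± 0.09 (adjusted p = 0.00535), a call lost within the 6 libraries alone (0.48, adjusted p = 0.0625). Of 26 glycolysis genes 2 rose and 3 fell (median -0.05), and none of the 26 was called without WT 4 or without KO 6. Tpi1, triosephosphate isomerase, fell by 0.22 ± 0.05 (adjusted p = 0.0137; without WT 4 -0.19, adjusted p = 0.0595, without KO 6 -0.17, adjusted p = 0.0573).

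Of 16 genes of homeostatic microglia 12 rose and none fell, with a median of 0.72, and all 16 differences were positive. Csf1r, the receptor for the growth factor on which microglia depend, had 39.2, 40.3 and 40.2 in WT and 67.7, 68.5 and 66.99 in KO (0.76 ± 0.05, adjusted p = 4.58e-06), with spreads far smaller than the gap. P2ry12, the purine receptor that marks resting microglia, had 12.8, 14.3 and 12.9 and 21.1, 22.4 and 23.2 (0.72 ± 0.09, adjusted p = 0.000263). Tgfbr1, a receptor of the TGF-beta signal that maintains microglia, rose by 0.54 ± 0.08 (adjusted p = 0.000973). The summed signal of the 16 genes was 245, 259 and 245 in WT and 398, 404 and 394 in KO, with every KO library above every WT library. The 12 calls became 9 to 12 when any library was left out.

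Genes of damage-associated microglia, the state described in neurodegeneration, had 12 of 23 members higher and none lower (median 0.58, all 23 positive), and 11 to 16 when any library was left out. Cd68, a lysosomal glycoprotein of phagocytes, had 2.95, 3.21 and 2.88 in WT and 8.52, 7.14 and 7.09 in KO (1.20 ± 0.11, adjusted p = 2.49e-05). Tyrobp, the signalling adaptor of Trem2, had 10.01, 10.4 and 10.2 and 24.6, 28.4 and 21.98 (1.25 ± 0.14, adjusted p = 0.000121). Neither gene overlapped between groups. This list shares Cd63, Ctsb, Ctsd and Lgals3 with the lysosomal genes above.

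Complement genes, which tag material for removal by microglia, had 9 of 15 members higher and none lower (median 0.81), and 8 or 9 when any library was left out. C1qa, a chain of the initiating C1q complex, had 26.4, 29.7 and 32.4 in WT and 70.1, 88.1 and 76.7 in KO (1.39 ± 0.12, adjusted p = 2.19e-05). C4b had 47.9, 55.8 and 46.3 and 143, 172 and 149 (1.62 ± 0.18, adjusted p = 0.000138), and reads of its near-copy C4a may be split between both genes. The groups were separated for both. Receptors rose as well: Itgb2, the beta subunit of complement receptor 3, rose by 1.09 ± 0.15 (adjusted p = 0.000765) and C3ar1, the C3a receptor, by 1.22 ± 0.21 (adjusted p = 0.00306). The summed signal of the 17 complement genes in the table, 2 of them below the filter, was 244, 288 and 269 in WT and 508, 553 and 498 in KO.

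MHC class I genes, which present peptides to CD8 T cells, had 10 of 15 members higher and none lower (median 0.83, all 15 positive), and 6 without WT 4 or within the 6 libraries alone. B2m, the invariant light chain, had 68.5, 92.1 and 79.3 in WT and 173, 164 and 199 in KO (1.16 ± 0.17, adjusted p = 0.00116). H2-D1, a classical heavy chain, had 47.98, 59.5 and 51.7 and 93.8, 85.3 and 106 (0.83 ± 0.11, adjusted p = 0.000415), and Tapbp, which loads peptides, 24.4, 27.6 and 23.4 and 33.3, 33.5 and 33.7 (0.41 ± 0.07, adjusted p = 0.00174). None of these overlapped between groups. H2-Q4 rose by 1.68 ± 0.29 (adjusted p = 0.00267), but H2 genes are near-copies of each other and differ between strains, so their counts are uncertain. Of 6 tested MHC class II genes 1 rose, H2-DMa (median 0.07), and none did without WT 1, WT 4, KO 6 or KO 8.

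Interferon-stimulated genes had 12 of 24 members higher and none lower (median 0.57, all 24 positive), with 5 called without KO 8, 8 without WT 1 or without WT 4, and 5 within the 6 libraries alone. Ifit3 had 8.22, 9.67 and 8.29 in WT and 15.7, 16 and 19.8 in KO (0.93 ± 0.20, adjusted p = 0.00834). Bst2, tetherin, which holds virus particles on the cell surface, had 2.89, 3.59 and 2.94 and 4.77, 7.08 and 10.04 (1.05 ± 0.23, adjusted p = 0.00982), with KO 8 the highest. Rsad2, viperin, had low signals of 0.658, 0.447 and 0.456 and 1.3, 1.52 and 1.9 (1.02 ± 0.18, adjusted p = 0.0037), and Irf9, a subunit of the transcription factor that interferon activates, 6.09, 6.01 and 7.41 and 9.97, 11.8 and 11.4 (0.72 ± 0.15, adjusted p = 0.00673). In each of the 4 genes the KO libraries stood above all WT libraries, as they did in 18 of the 24 tested members. Among all tested genes 29.2% had no overlap, in either direction.

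The 250 bases before the start of Rsad2, Ifit3, Bst2 and B2m are shown because they hold the spaced repeat of the interferon response element, searched as GAAANNGAAA on both strands and printed in capitals, where TTTC blocks are the same motif on the other strand (RefSeq, GRCm38.p6; Rsad2 chr12:26456453-26456702, minus strand, Ifit3 chr19:34583279-34583528, plus strand, Bst2 chr8:71537473-71537722, minus strand, B2m chr2:122147437-122147686, plus strand).
Rsad2: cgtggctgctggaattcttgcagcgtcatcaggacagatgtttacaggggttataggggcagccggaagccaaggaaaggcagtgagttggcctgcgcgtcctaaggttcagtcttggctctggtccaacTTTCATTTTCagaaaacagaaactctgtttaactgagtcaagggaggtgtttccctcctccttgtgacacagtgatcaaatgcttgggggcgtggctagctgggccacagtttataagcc
Ifit3: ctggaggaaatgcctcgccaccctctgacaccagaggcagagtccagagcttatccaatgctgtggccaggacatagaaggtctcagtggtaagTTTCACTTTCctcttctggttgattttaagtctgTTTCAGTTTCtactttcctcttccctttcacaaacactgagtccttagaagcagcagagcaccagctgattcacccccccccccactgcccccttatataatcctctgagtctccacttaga
Bst2: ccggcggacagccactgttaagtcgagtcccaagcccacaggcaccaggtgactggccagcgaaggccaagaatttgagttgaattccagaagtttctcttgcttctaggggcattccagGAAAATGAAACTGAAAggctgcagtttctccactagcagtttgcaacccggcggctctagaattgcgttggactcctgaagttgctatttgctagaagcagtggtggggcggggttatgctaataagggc
B2m: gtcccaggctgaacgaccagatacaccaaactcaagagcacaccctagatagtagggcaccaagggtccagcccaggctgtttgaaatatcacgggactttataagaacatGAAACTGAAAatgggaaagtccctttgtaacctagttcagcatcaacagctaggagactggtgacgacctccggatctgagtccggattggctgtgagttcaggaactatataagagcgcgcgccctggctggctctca
In Bst2 2 overlapping matches make 1 block. The repeat was found in 11 of the 20 interferon gene windows (55%), in 6 of the 11 windows of those called higher (54.5%) and in 2 of 13 MHC class I windows (15.4%), against 286 of all 11457 windows (2.5%). The interferon list holds genes known to respond to interferon, and it was chosen with earlier results of these data known.

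Of 22 genes of astrocyte reactivity 11 rose and none fell (median 0.46, 19 positive and 3 negative), and 9 to 12 when any library was left out. Gfap, the intermediate filament of astrocytes, had 1184, 1154 and 904 in WT and 2827, 2719 and 2977 in KO (1.40 ± 0.13, adjusted p = 2.97e-05). Hspb1, a small heat shock protein, had 32.02, 36.1 and 34.4 and 53.5, 63.1 and 54.9 (0.73 ± 0.07, adjusted p = 5.12e-05), and Osmr, the oncostatin M receptor, 2.21, 1.89 and 2.22 and 4.98, 4.4 and 4.96 (1.02 ± 0.14, adjusted p = 0.000611). The lowest KO value exceeded the highest WT value for all 3 genes. Cd109, a co-receptor that limits TGF-beta signalling, rose by 1.32 ± 0.17 (adjusted p = 0.000418). Of 15 identity genes 1 rose, Aqp4, the water channel of astrocyte end-feet (0.49 ± 0.12, adjusted p = 0.0162), and its call was lost without WT 4 (0.49, adjusted p = 0.0525) or KO 8 (0.46, adjusted p = 0.0514). Without WT 1 the identity genes had 3 members higher, and without KO 6 1 higher and 1 lower.

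Of 22 myelin genes 3 rose and none fell (median 0.12), with none called without WT 4, 1 higher without KO 6, and 1 higher and 1 lower without WT 3. Cldn11, the tight junction protein of myelin, had 348, 341 and 306 in WT and 431, 427 and 406 in KO (0.35 ± 0.08, adjusted p = 0.013, without WT 4 0.29, adjusted p = 0.0619). Of 10 precursor genes 4 rose and none fell (median 0.27), and 2 without WT 4, KO 6 or KO 8. Enpp6, which marks newly forming oligodendrocytes, had 32.9, 29.8 and 23.2 and 42.9, 38.3 and 40.8 (0.51 ± 0.10, adjusted p = 0.00723), and Vcan, the matrix proteoglycan versican made by precursors, rose by 0.51 ± 0.10 (adjusted p = 0.00549).

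Of 12 tested genes of inhibitory neurons 4 fell and none rose (median -0.27, 11 of 12 negative). Gad2, an enzyme of GABA synthesis, had 45.2, 43.1 and 47.1 in WT and 35.6, 34.4 and 31.4 in KO (-0.41 ± 0.09, adjusted p = 0.00738), without overlap. Gad1, the other GABA-producing enzyme, fell by 0.33 ± 0.08 (adjusted p = 0.0201) and Slc32a1, the vesicular transporter of GABA and glycine, by 0.26 ± 0.07 (adjusted p = 0.0318). Slc6a5, the glycine transporter of inhibitory terminals, fell by 0.36 ± 0.11 (adjusted p = 0.0461). The count of calls changed with the libraries: 1 of 12 genes was called without WT 4, without KO 6 or without KO 8, and 2 without KO 7. Gad2 was called in each of these. The summed signal of the 13 inhibitory neuron genes in the table, 1 of them below the filter, was 1069, 1166 and 1135 in WT and 932, 1034 and 988 in KO.

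Of 16 genes of dorsal horn neurons, most of them neuropeptides of sensory processing, 6 fell and none rose (median -0.36), with 1 called without WT 4 and 2 without KO 6 or without KO 8. Penk, the precursor of enkephalin, had 151, 156 and 178 in WT and 109, 137 and 102 in KO (-0.48 ± 0.11, adjusted p = 0.0109, without WT 4 -0.41, adjusted p = 0.0548). Nxph1, neurexophilin 1, a neurexin ligand, had 23.4, 23.2 and 24.4 and 18.2, 16.6 and 18.8 (-0.40 ± 0.06, adjusted p = 0.0018), and was called whichever library was left out. Neither gene overlapped between groups. Cck, cholecystokinin, fell by 0.49 ± 0.11 (adjusted p = 0.0138), a call lost without WT 4 (-0.46, adjusted p = 0.0546), KO 6 (-0.43, adjusted p = 0.0567) or KO 8 (-0.39, adjusted p = 0.0561).

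Synaptic genes had 6 of 25 members lower and none higher (median -0.14, 23 of 25 negative), and 2 without WT 4 or KO 8 and 3 without KO 6. Syn2, which tethers synaptic vesicles, had 166, 164 and 173 in WT and 139, 149 and 144 in KO (-0.22 ± 0.05, adjusted p = 0.00822). Its groups were separated and differed by less than 1.5-fold. Of 26 transmitter receptor genes 4 fell and none rose (median -0.15), and 1 without WT 4 and 2 without KO 6 or KO 8. Gabra3, a GABA-A receptor subunit, had 61.2, 59.2 and 67.7 and 51.9, 48.6 and 51.8 (-0.30 ± 0.06, adjusted p = 0.00887). Of 20 motor neuron genes 1 rose and 1 fell (median 0.01). The riser was Prph, the intermediate filament peripherin (0.40 ± 0.12, adjusted p = 0.0404), and the faller Esrrg, a nuclear receptor of gamma motor neurons (-0.31 ± 0.09, adjusted p = 0.0299), and neither was called without WT 1, WT 4, KO 6 or KO 7 (without WT 4 0.34, adjusted p = 0.15 for Prph and -0.22, adjusted p = 0.132 for Esrrg).

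Of 14 endothelial genes 7 rose and none fell (median 0.50, all 14 positive), and 4 without WT 4. Pecam1, the adhesion molecule CD31, had 4.88, 4.34 and 6.09 in WT and 9.63, 9.09 and 8.42 in KO (0.78 ± 0.12, adjusted p = 0.00156), and Flt1, a VEGF receptor, 19.1, 18.9 and 22.1 and 33.4, 27.96 and 28.1 (0.56 ± 0.09, adjusted p = 0.00172). Of the transporters of the blood-brain barrier, Abcb1a, P-glycoprotein, had 9.37, 8.09 and 9.02 and 13.9, 11.8 and 12.1 (0.49 ± 0.08, adjusted p = 0.00173), and Slco1a4 rose by 0.70 ± 0.12 (adjusted p = 0.00233). The groups of all 4 genes were separate. Of 28 matrix genes 4 rose and none fell (median 0.20), with 10 called without WT 3, the library with the most meningeal, muscle and Schwann cell signal. Col4a2, a basement membrane collagen, had 8.62, 9.18 and 7.79 and 16.9, 16.03 and 20.4 (1.01 ± 0.11, adjusted p = 9.99e-05). Col11a1, a fibrillar collagen, rose by 0.69 ± 0.12 (adjusted p = 0.00336). Of 19 TGF-beta and latent-binding protein genes 4 rose, Ltbp3, Ltbp4, Tgfb2 and Tgfbr1, and none fell (median 0.15), with 1 called without WT 4 and 2 without WT 1, KO 6 or KO 7. Of 10 ependymal genes 3 rose and none fell (median 0.09; without WT 4 1 fell), among them Pltp, the phospholipid transfer protein, with 42.9, 44.1 and 36.6 and 68.1, 69.7 and 57.2 (0.65 ± 0.08, adjusted p = 0.000427).

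Of 16 heat shock genes 5 rose and none fell (median 0.07), with 2 called without WT 1 or KO 7 and 3 without WT 4 or KO 6. The inducible chaperone Hspa1a had 6.13, 8.43 and 7.63 in WT and 32.97, 84.2 and 12.8 in KO (2.10 ± 0.56, adjusted p = 0.0261). KO 7 was the highest, the KO spread was wide and the call was lost without WT 1 (1.98, adjusted p = 0.0682), WT 4 (2.13, adjusted p = 0.0731), KO 6 (2.10, adjusted p = 0.0685) or KO 7 (1.43, adjusted p = 0.085). Reads of Hspa1a and its near-copy Hspa1b cannot be told apart with certainty. Atf3, a transcription factor of the injury response, had 1.54, 1.31 and 0.866 in WT and 2.38, 3.5 and 3.56 in KO (1.07 ± 0.22, adjusted p = 0.00738), while Gap43, a growth cone protein, fell by 0.33 ± 0.08 (adjusted p = 0.0157) and was not called without WT 4 (-0.27, adjusted p = 0.0725), KO 6 (-0.29, adjusted p = 0.0623) or KO 8 (-0.29, adjusted p = 0.0574).

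Of 20 cholesterol and sterol genes 4 rose and none fell (median 0.20), 2 without WT 4 or KO 6 and 7 without WT 1. Abca1, the exporter of cellular cholesterol, had 8.25, 13.3 and 11.2 in WT and 19.8, 17.8 and 16.2 in KO (0.71 ± 0.12, adjusted p = 0.00317), and Sqle, squalene epoxidase, rose by 0.31 ± 0.06 (adjusted p = 0.00685). Of 17 oxidative stress genes 2 rose and 2 fell (median -0.01). Nfe2l2, the transcription factor Nrf2, had 14.1, 17.02 and 17.1 and 22.5, 21.5 and 21.3 (0.43 ± 0.08, adjusted p = 0.00328), without overlap, while Srxn1, its target sulfiredoxin, fell by 0.31 ± 0.06 (adjusted p = 0.00544), a call lost within the 6 libraries alone (-0.31, adjusted p = 0.0521). Of 26 nuclear genes of the respiratory chain 5 fell and none rose (median -0.12, all 26 negative). The count was 2 without WT 1 or KO 6, 10 without KO 7 and 0 within the 6 libraries alone. Of 13 genes encoded by the mitochondrial genome none was called (median 0.09, 12 positive and 1 negative). Uqcrfs1, the Rieske protein of complex III, had 151, 149 and 147 and 117, 137 and 127 (-0.23 ± 0.05, adjusted p = 0.00837, within the 6 libraries alone -0.23, adjusted p = 0.0747). Of 12 proliferation genes 3 rose and none fell (median 0.17), and 1 without WT 4, KO 6 or KO 7. Ccna2, cyclin A2, had 1.27, 1.6 and 1.56 in WT and 3.31, 2.78 and 3.19 in KO (0.86 ± 0.16, adjusted p = 0.00491).

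Several of the largest changes were in genes outside these lists. Gm15501, a processed pseudogene on chromosome 7, had no read in any WT library and 122, 268 and 219 in KO, at least 2160-fold higher against a floor of 3 reads per library. BC002163, a processed pseudogene on chromosome 16, had 59.4, 31.7 and 54.2 in WT and no read in any KO library, at least 477-fold lower. Tpm3-rs7, a tropomyosin-related gene on chromosome 14, had 0.287, 0.447 and 0.205 and 29.2, 26.9 and 31.5 (5.20 ± 0.21, adjusted p = 3.12e-09). Gm15501 had 123, 223 and 1.42 in the 3 treated KO libraries, so that 1 treated mouse lacked most of the signal that the KO mice carried. Such copies share sequence with their parent genes, and their counts are uncertain because they depend on how reads were divided between them. Of named protein-coding genes, Sfi1, a centrin-binding protein of centrosomes, had 10.9, 9.79 and 10.5 and 84.01, 86.2 and 62.6 (2.83 ± 0.25, adjusted p = 2.25e-05). Kif24, a kinesin that restrains ciliogenesis, had 1.5, 1.92 and 0.928 and 13.6, 8.64 and 12 (2.62 ± 0.22, adjusted p = 2.19e-05). All 3 KO libraries were several times above WT in each. Neat1, the long noncoding RNA that builds paraspeckles, had 229.8, 250.3 and 191 in WT and 45.6, 35.7 and 50.7 in KO (-2.34 ± 0.35, adjusted p = 0.00116), with no overlap. Mid1, a ubiquitin ligase on the X chromosome, had 18.7, 21.7 and 22.3 and 4.53, 4.67 and 5.36 (-2 ± 0.41, adjusted p = 0.00723).

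These large changes were unevenly spread along the genome. Chromosome 4 held 26 of the 125 genes that were called and over 2-fold, 15 of the 27 downward ones and 11 of the 98 upward ones, with 959 genes tested. Of all its tested genes 17.21% were called. Kif24 and the zinc finger gene Zfp979 (1.3, 1.17 and 1.21 in WT, 7.03, 5.03 and 5.92 in KO, 1.90 ± 0.18, adjusted p = 2.96e-05) lie there, as does Igfbpl1 (0.0506, 0.274 and 0.142 and 2.65, 3.38 and 3.04, 2.44 ± 0.22, adjusted p = 2.25e-05). In Fggy, a carbohydrate kinase gene on chromosome 4, all KO libraries were lower, with 5.08, 5.69 and 5.4 and 2.1, 0.165 and 1.24 (-2.03 ± 0.45, adjusted p = 0.0113). Within 10 Mb of Gaa on chromosome 11, 197 genes were tested, and 26 were called higher and 4 lower, 15.23% against 13.01% of all genes. The anion transporter gene Slc26a11 (chr11:119355557-119381079, downstream of Gaa on the same strand) had 4.1, 4.28 and 4.11 and 7.13, 7.44 and 7.76 (0.77 ± 0.12, adjusted p = 0.00156). Genotypes along these chromosomes were not analysed here, and whether the KO and WT mice carried the same strain segments was not tested.

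**Figure D3:**
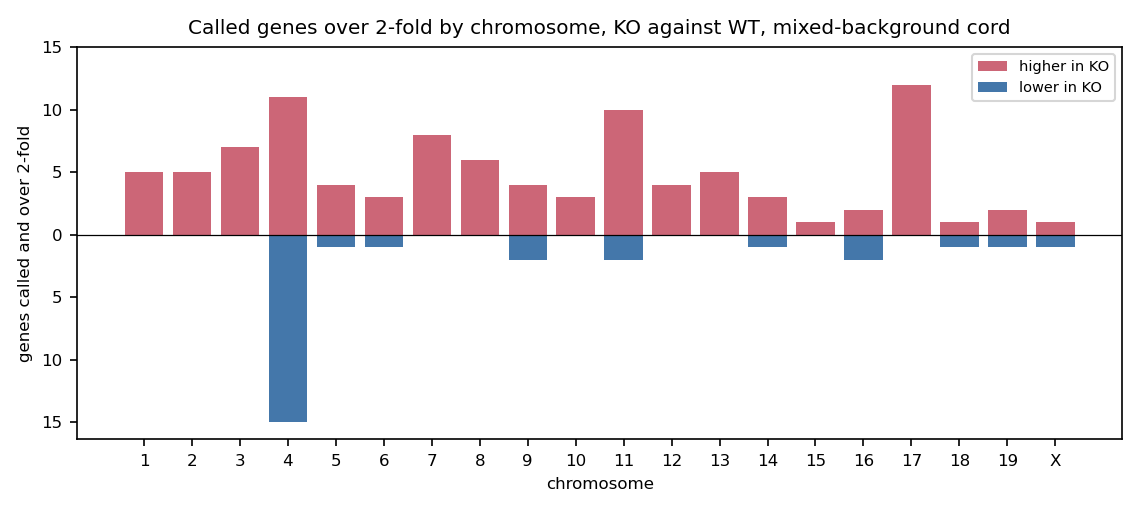
Number of genes called and over 2-fold in KO against WT cord by chromosome, higher in KO upward and lower in KO downward. Chromosome 4 has 15 of the 27 genes that were lower by over 2-fold.

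The same comparison on the B6;129 background, which shares no library with it, called 158 genes higher (0.998%) and 25 lower (0.158%). Of these, 128 were also higher on the mixed background, 81.01% of the B6;129 calls and 11.29% of the mixed-background calls, and 7 were also lower, 28% and 0.7551%. Tdgf1, a co-receptor of Nodal, was called in opposite directions, with 8.36, 5.2 and 8.77 in WT and 1.54, 1.37 and 1.16 in KO on the mixed background (-2.07 ± 0.43, adjusted p = 0.00813) against 2.19 ± 0.43, adjusted p = 0.0205 on B6;129. Gene levels were not set side by side between the backgrounds, since the libraries differed by transcript length: the deviation of a library from the cord mean correlated with log2 transcript length at 0.435 to 0.489 in the B6;129 libraries and at -0.427 to -0.332 in the mixed ones. The difference between KO and WT within the mixed background correlated with it at 0.0398 over 15810 genes. The background also cannot be told apart from the letter, A or B, that opens the column names. Differences between KO and WT within each background are given for 4 of the genes above: Lgals3 differed by 2.35 ± 0.21 on B6;129, C4b by 1.86 ± 0.18, Ctss by 1.07 ± 0.13 and Gfap by 1.02 ± 0.13. Of the 14 endothelial genes none was called on B6;129 (median 0.04), and none of the 24 interferon (median 0.11) or 15 MHC class I genes (median 0.18) was called there.

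A test of the difference between the KO effects of the backgrounds called 83 genes (0.524%). In 66 of them the mixed background had the higher effect and in 17 the lower. The count was 41 to 98 when 1 library was left out. It was lowest without B6;129 KO 2, was 41 to 55 without any 1 of the 6 B6;129 libraries, and was 46 without mixed-background KO 6 and 52 without KO 8. None of the endothelial, interferon or MHC class I genes was among the 83, so the larger counts on the mixed background were not shown to be a difference between backgrounds. Csf1r was among them, with a KO effect of 0.23 ± 0.05 on B6;129 and a difference of 0.53 ± 0.08, adjusted p = 0.00663. Col4a2 had -0.15 ± 0.11 on B6;129 and a difference of 1.16 ± 0.15, adjusted p = 0.0029. Others were among the genes with the largest changes: Tpm3-rs7 (5.05 ± 0.30, adjusted p = 1.1e-06), Kif24 (2.99 ± 0.31, adjusted p = 0.000367), Sfi1 (2.70 ± 0.36, adjusted p = 0.0029), and Neat1 with the opposite sign (-2.54 ± 0.49, adjusted p = 0.0359).

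**Figure D4:**
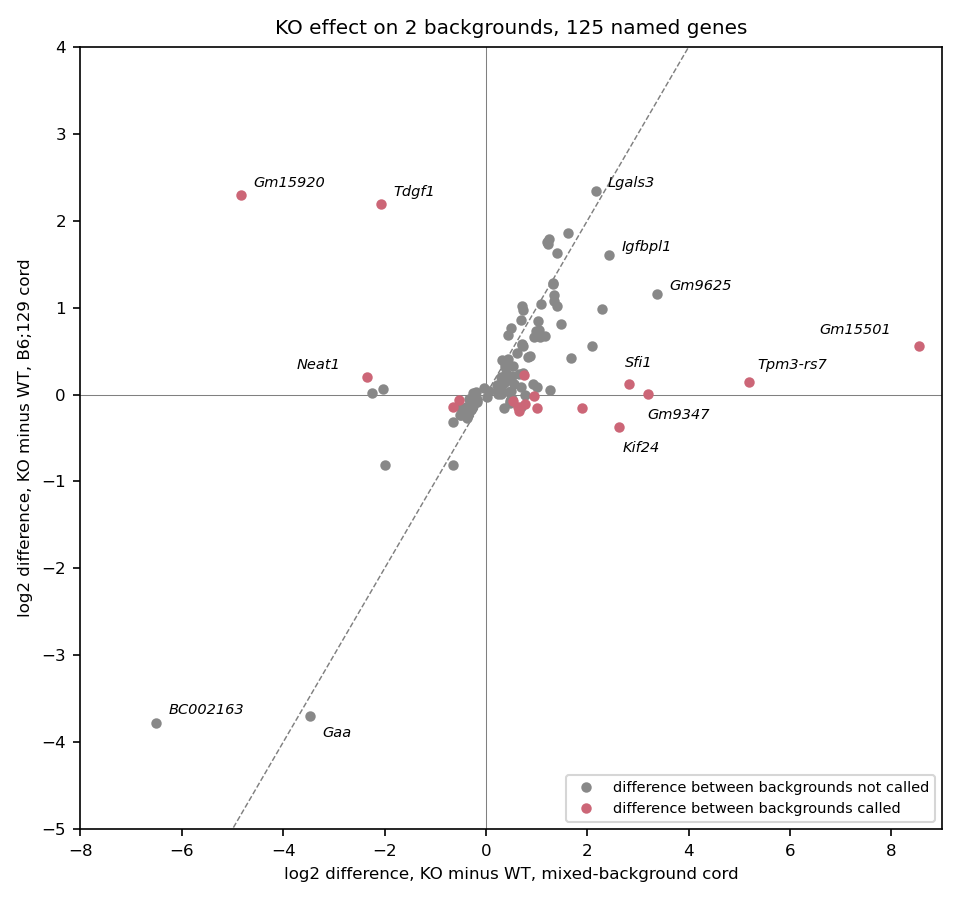
Log2 difference between KO and WT of the 125 named genes on the mixed background (horizontal axis) and on B6;129 (vertical axis), with genes called in the test of the difference in red and equal effects on the dashed line. Gaa lies near the line, and Tpm3-rs7, Gm15501 and Gm15920 lie far from it.

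The quadriceps of the same 6 mice was set beside the cord in a model of all 30 libraries. The KO effect differed between the tissues at 4255 of 13187 genes tested in both (32.3%), 2467 with the higher effect in cord and 1788 with the higher effect in muscle. Of 13 endothelial genes tested in both tissues, 10 had a higher KO effect in cord, and in quadriceps 8 fell and 1 rose (median -0.55). Flt1 differed by 0.56 ± 0.19 in cord and -0.87 ± 0.19 in quadriceps (difference 1.43 ± 0.27, adjusted p = 0.000241), and Pecam1 by 0.78 ± 0.14 and -0.55 ± 0.14 (difference 1.33 ± 0.20, adjusted p = 1.76e-05). Aqp4, which muscle fibres also make, differed by 0.49 ± 0.24 in cord and -3.11 ± 0.24 in quadriceps (difference 3.60 ± 0.34, adjusted p = 5.17e-08). Of 30 lysosomal enzymes 7 had a higher KO effect in muscle and 1 in cord, and of the 13 genes of the cathepsin list 5 and 2. Against 32.3% of all genes, the share called was lower among the enzymes and higher among the cathepsins. The called genes included Hexa (0.44 ± 0.10 in cord, 1.36 ± 0.10 in quadriceps, difference -0.93 ± 0.14, adjusted p = 2.3e-05) and Ctss (1.34 ± 0.23 and 2.57 ± 0.23, difference -1.23 ± 0.33, adjusted p = 0.00612). The autophagy receptor Sqstm1 differed by 0.02 ± 0.11 in cord and 0.69 ± 0.11 in quadriceps (difference -0.67 ± 0.15, adjusted p = 0.00156). Mt3, a metallothionein that neural tissue makes at a high level, had overlapping groups in cord (529.7 to 594 in WT, 453 to 673 in KO), against a difference of 7.38 ± 0.28 in quadriceps (difference -7.42 ± 0.39, adjusted p = 6.86e-12). The test called 0 of 15 complement genes, 4 of 15 MHC class I genes and 0 of 24 interferon genes, shares below the 32.3% of all genes.

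**Figure D5:**
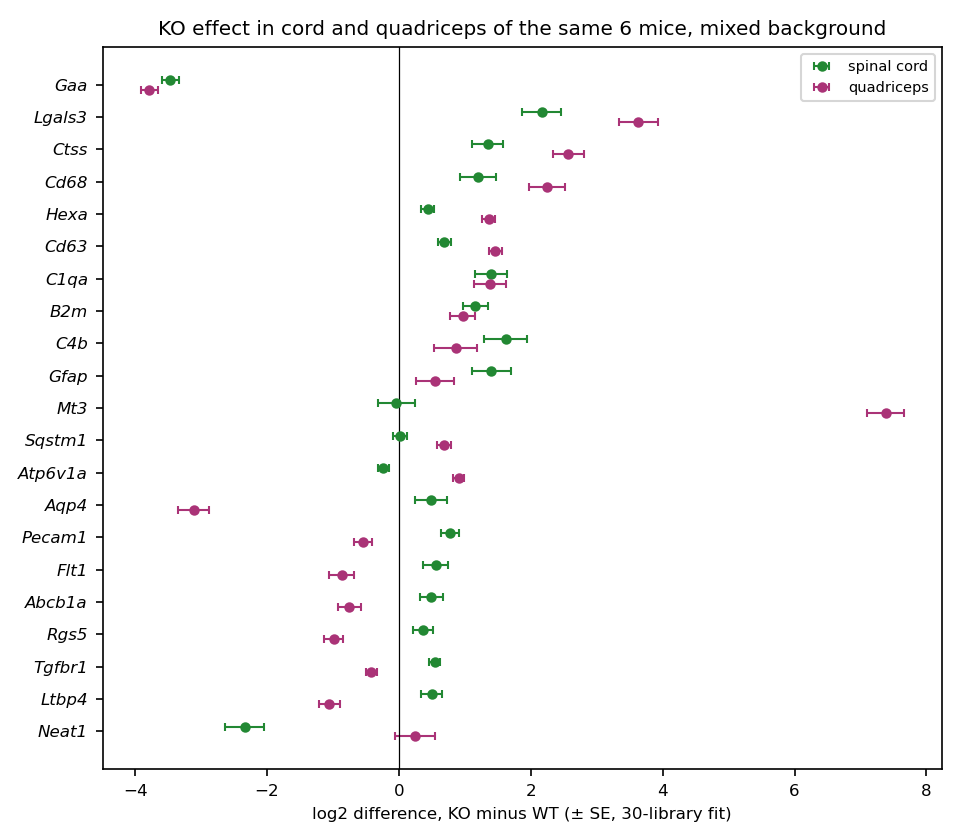
Log2 difference between KO and WT (± SE) in spinal cord (green) and quadriceps (purple) of the same 6 mice for 21 genes. Flt1, Pecam1, Abcb1a, Rgs5, Tgfbr1, Ltbp4, Aqp4, Atp6v1a and Neat1 are among the genes on opposite sides of 0 in the tissues, and Mt3 is far higher in quadriceps.

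The cord of the 3 treated KO mice is given as levels alone, since any contrast with them shares libraries with this one. Mouse Gaa had 9.27, 10.3 and 8.09 in the treated libraries, below the KO range of 10.6 to 13.4. C1qa had 56.7, 45.2 and 64.3, between the KO range of 70.1 to 88.1 and the WT range of 26.4 to 32.4. Ctss had 106, 78.4 and 135 against 129 to 139 in KO, so that 1 treated library lay inside the KO range and the other two below it. Gfap had 2572, 2713 and 3406 against 2719 to 2977 in KO and 904 to 1184 in WT, and Gad2 41.1, 32.3 and 31.2 against 31.4 to 35.6 and 43.1 to 47.1. All treated values of Gfap were above the WT range, and 1 of Gad2 lay between the KO and WT ranges.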

How the data were processed

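RNA of 30 libraries (whole spinal cord and quadriceps of 15 mice) was sequenced as single-end reads of 61 bases, per the labels' protocols. The submitters' processing notes name cutadapt, RSEM, edgeR, limma and GRCm38, without versions. The deposited values are a linear normalized signal: the authors' values equal reads plus 0.5 divided by a scaled library size, and whole reads were recovered for 100.0% of values within 0.001. Genes were kept where 3 or more cord libraries had a signal of 1 or more. Log2 of signal plus 0.5 was fitted with limma 3.58.1 (R 4.3.3, trended variance) over the 15 cord libraries in 5 groups, and differences with an adjusted p under 0.05 were called. All 30 libraries entered the tissue model. Alternatives used edgeR 4.0.16 and DESeq2 1.42.0 on recovered reads, other scalings, filters and pseudocounts, the 6 libraries alone and each library left out. The cord fit of KO against WT was tested on simulated reads, and the difference tests between backgrounds and between tissues were not. Cord and quadriceps of each animal share its number, and each of the 15 cord libraries correlated more with its own partner than with its group mates' partners (r of their deviations from group means 0.109 to 0.3537). Positions come from GENCODE vM21, in which 99.8% of gene IDs were found. Named genes were Gaa and Ltbp4, the 15 largest called and non-overlapping changes per direction, 4 called and 2 uncalled members per list, 8 genes per direction of each difference test and 8 near Gaa; the text gives values for some of them, and a few that the rule named are not reported here. The members and lists were chosen with earlier results of these data known.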

Additional observations from a re-analysis of the deposited data

Results flagged for a closer look

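The effect of the knockout on 18 of the 125 named genes differed between the mixed and B6;129 backgrounds in the interaction test of limma (adjusted p under 0.05 over all tested genes). Some of these genes were named because they passed this test, so the count is partly fixed by their choice, and 0.524% of all tested genes were called. The values are the KO-minus-WT difference on the mixed background less that on B6;129, on the log2 scale. It was higher on the mixed background for 13 genes: Gm15501 7.99, Tpm3-rs7 5.05, Gm9347 3.19, Kif24 2.99, Sfi1 2.70, Zfp979 2.05, Col4a2 1.16, Arhgef1 0.97, Slc26a11 0.87, Vwa5b2 0.83, Lrrc45 0.77, Ttyh2 0.61, Csf1r 0.53. It was lower for 5: Hp1bp3 -0.47, Sh2d5 -0.50, Neat1 -2.54, Tdgf1 -4.26, Gm15920 -7.12. The microglial receptor Csf1r and the basement membrane collagen Col4a2 were in the first set. The background cannot be told apart from the letter that opens the column names.

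Of the 102 named genes tested in both tissues, 33 had a knockout effect that differed between cord and quadriceps of the same mice (limma, 30 libraries, adjusted p under 0.05), against 32.3% of all 13187 genes. As the effect in cord less that in quadriceps, on the log2 scale, it was higher in cord for 18 genes: Aqp4 3.60, Zfp979 1.85, Ltbp4 1.55, Flt1 1.43, Rgs5 1.35, Pecam1 1.33, Col4a2 1.30, Abcb1a 1.24, Tpm3-rs7 1.21, Optn 1.14, Col5a1 1.13, Osmr 1.11, Tgfbr1 0.96, Ttyh2 0.89, Arhgef1 0.83, Lrrc45 0.46, Tpi1 0.37, Scarb2 0.29. It was lower for 15: Tapbp -0.34, Hp1bp3 -0.35, Vamp2 -0.43, Sqstm1 -0.67, Cd63 -0.77, Hexa -0.93, Slc26a11 -1, Prkag2 -1.02, Cd68 -1.05, Atp6v1a -1.14, Ctss -1.23, Srxn1 -1.31, Lgals3 -1.47, Neat1 -2.58, Mt3 -7.42. The named genes were largely chosen by their change in cord, so these counts do not describe genes in general.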

How the results depend on the processing

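Of the 120 named genes that were called, 79, Gaa among them, kept their call in every alternative, and none reversed. The number of genes called between KO and WT cord, 2061 in all, was 722 when the model used only the 6 libraries, and 917 (without WT 4) to 1891 (without WT 3) when 1 library was left out. It was 1965 with edgeR, 2438 with DESeq2, 1652 after quantile normalization, 1740 without mitochondrial genes in the scaling and 2200 (992 up, 1208 down) with library medians set equal. The difference between backgrounds, 83 genes, was 144 with only its own groups, 278 with DESeq2, and 41 (without B6;129 KO 2) to 98 (without mixed-background KO 7) with 1 library left out. The cause of these shifts was not tested. The difference between tissues, 4255 genes, was 3606 (without cord KO 6) to 4301 (without quadriceps WT 4) with 1 library left out.

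No paired analysis was possible for KO against WT because the groups share no replicate number. With the animal as a replicate block, the difference between tissues was called at 4520 genes as a random block and at 4123 from within-animal differences. No other count was fitted with the block.

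Of the named genes that were not called, Sqstm1 changed sign with library medians set equal (-0.007), after the length and GC correction (-0.0145) and with 1 library left out ranged from -0.0359 (without KO 7) to 0.056 (without KO 6). Mt3 ranged from -0.1783 (without KO 7) to 0.1065 (without KO 6). The muscle actin Acta1, a marker of adjoining tissue, ranged from -2.0699 (without WT 4) to 0.5925 (without WT 3) and was 0.0623 without KO 7. At the depth of these libraries 3 reads are worth a signal of 0.0865 to 0.111, without the offset of 0.5 reads. Values near or below this rest on few reads and are uncertain. With 3 mice in each group, small differences may have been missed.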
